A study of Mus musculus with 9 samples.

Results

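The 8 genes for the troponin subunits of mouse heart and skeletal muscle were followed in cells grown from adipose tissue. A member was any transcript cluster (a set of probes that reads a gene or a stretch of one) that the array annotation gives to Tnnt1, Tnnt2, Tnnt3, Tnni1, Tnni2, Tnni3, Tnnc1 or Tnnc2 alone. Each of the 8 genes had exactly 1 such cluster, out of 33323 clusters and 19938 genes on the array, and all 8 were tested without a filter on low values. Stromal vascular fraction (SVF) cells, the mixed non-adipocyte cells of fat, came from subcutaneous adipose tissue of C57BL6/J mice aged 10 weeks and were kept in primary culture without any inducing treatment. On day 28, the spontaneously beating colonies were picked by hand with tweezers as the beating group (n = 4), and the other cells of the dishes formed the non-beating group (n = 4). On day 14, 6 round cells were collected and combined as the only round sample (n = 1). A beating sample combined colonies from several dishes of 1 SVF lot and can hold neighbouring cells, whereas a non-beating sample is the mixed remainder of the culture. It is not stated whether samples within a group derive from different SVF lots, so the p-values measure only how these samples spread, which may be technical. The platform was the Affymetrix Mouse Gene 1.0 ST array. Values are log2 signals that may include background, so a fold is a ratio of signals and not of transcript amounts. Because these are bulk samples, fewer cells of a type and less RNA per cell cannot be told apart.

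Troponin is the calcium switch of striated muscle and sits along the thin filament with actin and tropomyosin. Troponin C binds calcium, troponin I holds the filament in the inhibited state, and troponin T ties the complex to tropomyosin. Each subunit has forms for cardiac, slow skeletal and fast skeletal muscle, except that slow skeletal and cardiac muscle share 1 troponin C. Cardiac troponin T and slow skeletal troponin I also occur in developing muscle of the other kind, whereas cardiac troponin I is regarded as restricted to the heart.

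In the beating samples 7 of the 8 troponin genes were higher than in the non-beating samples, by 22.7-fold to 68.8-fold, and the exception was Tnni3, the cardiac troponin I gene, at 1.07-fold. The 7 lay between 7.47 and 11.71 (log2 signal) on the beating arrays and between 3.14 and 6.51 on the non-beating arrays. The 7 genes comprised all 3 fast forms (Tnnt3, Tnni2, Tnnc2), both slow-only forms (Tnnt1, Tnni1), the shared slow and cardiac form (Tnnc1) and cardiac Tnnt2. By limma over all clusters (two-sided, Benjamini-Hochberg adjusted p under 0.05), 7 of 8 members were called higher and 0 lower, against 2.82% of all clusters called higher and 3.34% called lower. Only 0.207% of clusters were called higher with a change of at least 16-fold, and all 7 were among them. The 4 beating values lay above all 4 non-beating values for the same 7 genes, which 5.98% of all clusters did. No member lay wholly below, as 8.24% of all clusters did. The methods' two-sample test at an unadjusted p under 0.0001, which 0.633% of clusters passed as higher, also called all 7. The 7 adjusted p-values lay between 1.12e-06 and 4.81e-05.

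**Figure D1:**
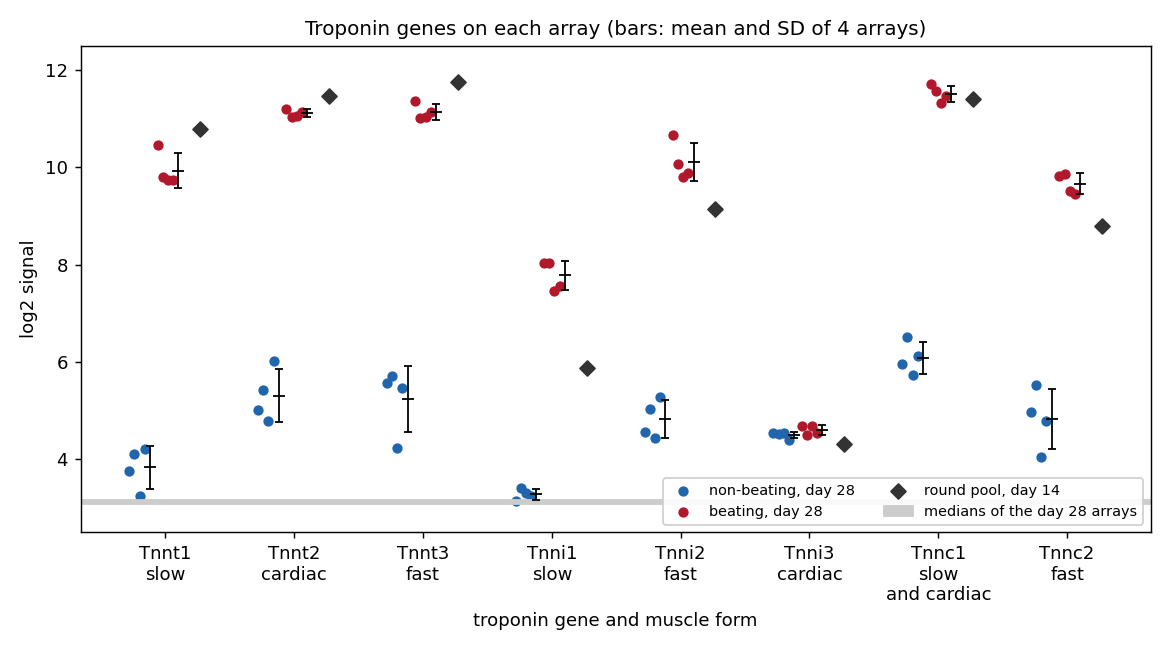
Log2 signal (vertical axis) of the 8 troponin genes (horizontal axis) on each array, with non-beating samples in blue, beating samples in red, the round pool as a diamond, bars for the mean and SD of 4 arrays, and a grey band for the range of the day 28 array medians. For 7 genes the red points lie at least 3.93 above the highest blue point, whereas for Tnni3 both groups lie between 4.40 and 4.69.

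The regulatory stretches in front of 4 members are shown first, since Tnnt1 and Tnni3 are next to each other on chromosome 7 and had the largest and the smallest change of the family. Tnnt2, shown at the first of its 2 listed starts, is the cardiac form that rose, and Tnnc1 is the form that heart and slow muscle share. RefSeq starts were found for 6 of the 8 members (Tnnt3 and Tnni2 were not matched). Each line gives the 250 bases before the listed start, 5′ to 3′ on the strand of the gene, in GRCm38.p6. Capitals mark matches to the E-box CANNTG, the site of myogenic bHLH factors such as MyoD, which reads the same on both strands, and to the MCAT element CATTCC on either strand, which TEAD factors bind.
Tnnt1, chr7:4515976-4516225, minus strand: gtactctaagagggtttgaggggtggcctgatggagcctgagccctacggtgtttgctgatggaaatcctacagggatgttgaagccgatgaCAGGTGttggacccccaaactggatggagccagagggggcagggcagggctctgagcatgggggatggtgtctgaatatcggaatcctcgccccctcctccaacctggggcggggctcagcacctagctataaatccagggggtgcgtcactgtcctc
Tnni3, chr7:4522529-4522778, minus strand: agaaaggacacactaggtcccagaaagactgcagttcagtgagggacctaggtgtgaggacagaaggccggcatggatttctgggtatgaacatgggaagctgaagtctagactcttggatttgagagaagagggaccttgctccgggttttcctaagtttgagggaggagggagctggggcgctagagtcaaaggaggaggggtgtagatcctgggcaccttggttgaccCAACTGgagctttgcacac
Tnnt2, chr1:135836084-135836333, plus strand: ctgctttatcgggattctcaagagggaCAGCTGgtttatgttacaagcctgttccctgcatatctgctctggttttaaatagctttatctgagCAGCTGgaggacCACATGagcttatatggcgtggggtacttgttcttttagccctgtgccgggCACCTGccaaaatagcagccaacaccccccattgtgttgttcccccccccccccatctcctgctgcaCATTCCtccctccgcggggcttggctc
Tnnc1, chr14:31208062-31208311, plus strand: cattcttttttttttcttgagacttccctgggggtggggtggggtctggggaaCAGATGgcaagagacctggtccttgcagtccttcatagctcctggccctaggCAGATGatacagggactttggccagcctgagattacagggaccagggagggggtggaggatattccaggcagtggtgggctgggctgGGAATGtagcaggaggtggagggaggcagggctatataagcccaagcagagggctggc
The Tnnt1 and Tnni3 stretches each held 1 E-box, and neither held an MCAT match. Those of Tnnt2 and Tnnc1 held 4 and 2 E-boxes, and 1 MCAT match each, with no overlap between the motifs. Of the windows not shown, those of Tnni1 held 4 and 2 E-boxes (starts 1 and 2) and that of Tnnc2 held 2. The window of the second Tnnt2 start held 1 E-box. None of these windows held an MCAT match. Over all 32851 listed starts, 66.2% of windows of this length held at least 1 E-box and 12.6% an MCAT match. The share of windows with several E-boxes was not counted. Among the other motifs searched on both strands, GATAA matched 2 times in the Tnnt2 stretch and TATAAA 1 time in that of Tnnt1, and these occur in 22.6% and 12.4% of windows. No MEF2 or CArG match was found in the windows of the 6 members, against 2.92% and 1.47% of all windows. Each match describes letters and not a site shown to be used, and no match says only that these letters are not in the window.

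Among the troponin T genes, all 3 forms rose. Tnnt1 (Entrez 21955, chromosome 7), the slow skeletal form, read 10.47, 9.79, 9.73 and 9.74 (log2 signal) in beating replicates 1 to 4 and 3.76, 4.11, 3.25 and 4.20 in non-beating replicates 1 to 4. The lowest beating value was 5.53 above the highest non-beating value, the widest such gap of the family. Its means were 9.93 ± 0.36 and 3.83 ± 0.43 (SD, n = 4 each), a log2 fold change of 6.10 (SE 0.25) or 68.8-fold (95% interval 46.3 to 102, limma adjusted p = 5.96e-06). A larger log2 fold change was measured for 14 other genes.

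Tnnt2 (Entrez 21956, chromosome 1), the cardiac form that is also made in embryonic skeletal muscle, read 11.21, 11.03, 11.07 and 11.15 in the beating samples and 5.01, 5.42, 4.78 and 6.03 in the non-beating samples (log2 signal). The beating samples were nearly alike and the non-beating samples spread by more than 1 unit, with replicate 4 on top. The mean was 11.11 ± 0.080 against 5.31 ± 0.55 (SD, n = 4 each), which is 55.9-fold (95% interval 37.9 to 82.5, limma adjusted p = 6.93e-06). Fast skeletal Tnnt3 (Entrez 21957, chromosome 7) read 11.36, 11.02, 11.04 and 11.15 against 5.56, 5.70, 4.23 and 5.46 (log2 signal). Non-beating replicate 3 was well below the other non-beating samples, and the groups were 5.32 apart at their closest. The fold was 59.8 (95% interval 36.8 to 97.3, limma adjusted p = 2.38e-05).

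The inhibitory subunit split by form. Slow skeletal Tnni1 (Entrez 21952, chromosome 1), the form that the fetal heart also uses before birth, read 8.04, 8.04, 7.47 and 7.56 (log2 signal) in the beating samples and 3.14, 3.41, 3.30 and 3.25 in the non-beating samples. Beating replicates 1 and 2 were the higher pair, and the groups did not overlap. This gave 22.7-fold (95% interval 17.9 to 28.8, limma adjusted p = 1.65e-06), the smallest rise of the 7. Fast skeletal Tnni2 (Entrez 21953, chromosome 7) read 10.67, 10.07, 9.81 and 9.89 against 4.57, 5.03, 4.45 and 5.29 (log2 signal). Again beating replicate 1 was on top, and the closest values were 4.52 apart. The fold was 38.8 (95% interval 26.3 to 57.3, limma adjusted p = 1.19e-05).

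Cardiac Tnni3 (Entrez 21954, chromosome 7), the form of the mature heart, read 4.69, 4.49, 4.69 and 4.54 in the beating samples and 4.54, 4.51, 4.54 and 4.40 in the non-beating samples (log2 signal). The groups overlapped, and no array stood apart. The mean was 4.60 ± 0.10 against 4.50 ± 0.066 (SD, n = 4 each), and the log2 fold change of 0.10 (SE 0.070) did not pass the test (limma adjusted p = 0.471). The 95% interval of the fold ran from 0.96 to 1.20, so a rise in signal of more than 1.20-fold lies outside it. No heart tissue is among the samples, so whether the only Tnni3 cluster responds to its transcript was not tested. A flat signal therefore cannot tell an absent transcript from a cluster that does not respond. The round pool read 4.32.

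Both troponin C genes rose. Tnnc1 (Entrez 21924, chromosome 14), the calcium sensor of heart and slow muscle, read 11.71, 11.57, 11.32 and 11.47 against 5.95, 6.51, 5.74 and 6.13 (log2 signal). The groups were far apart, and the spread within each was small. The fold was 43.2 (95% interval 33.2 to 56.3), with the lowest adjusted p of the family (limma adjusted p = 1.12e-06). Fast skeletal Tnnc2 (Entrez 21925, chromosome 2) read 9.83, 9.87, 9.51 and 9.46 against 4.97, 5.52, 4.05 and 4.78 (log2 signal). Non-beating replicate 3 was again the lowest. The fold was 28.6 (95% interval 18.2 to 44.9, limma adjusted p = 4.81e-05).

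Whether cardiac, slow and fast forms of a subunit changed by different amounts was asked within each array, from the log2 ratio of a pair of genes, for 7 pairs. The rise of Tnni1 exceeded the change of Tnni3 by 4.40 (log2, SE 0.18, 95% interval 3.95 to 4.85). The rise of Tnni2 exceeded it by 5.18 (SE 0.29, 95% interval 4.46 to 5.89). For both pairs the exact two-sided permutation p over all 70 splits was 0.0286, the smallest the design allows, and 0.0667 after Benjamini-Hochberg adjustment over the 7 pairs. Therefore neither passed after adjustment, although the ratio was higher in 4 of 4 beating samples than in any non-beating sample. No difference, however large, could have given a smaller permutation p with these arrays. Over 7 pairs, such a p passes the adjustment only if enough other pairs reach it too. This failure therefore follows from the design and does not show that the changes were alike.

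Among the forms that rose, no pair passed after adjustment either, and the same limit of the design holds for Tnnc1 with Tnnc2. Tnnc1 rose by 0.60 more than Tnnc2 (log2, SE 0.18, 95% interval 0.16 to 1.04, exact permutation p = 0.0286, adjusted p = 0.0667). Tnni2 rose by 0.77 more than Tnni1 (95% interval 0.23 to 1.32, exact permutation p = 0.0571, adjusted p = 0.1). Tnni1 read 3.14 to 3.41 in the non-beating samples, next to array medians of 3.08 to 3.09, and the part of background in this difference of signals was not tested. For the troponin T forms, slow and cardiac differed by 0.30 (95% interval -0.19 to 0.79, exact permutation p = 0.229, adjusted p = 0.32). Slow and fast differed by 0.20 (95% interval -0.32 to 0.72, exact permutation p = 0.371, adjusted p = 0.433). Fast and cardiac differed by 0.098 (95% interval -0.61 to 0.81, exact permutation p = 0.8, adjusted p = 0.8). These intervals reach 0.81, so the 3 forms were not shown to have risen alike.

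**Figure D2:**
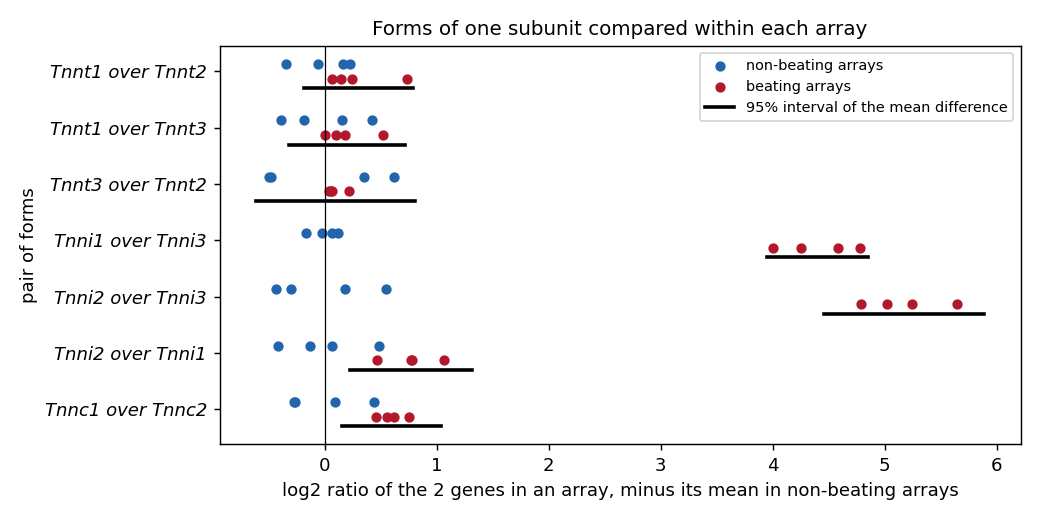
Log2 ratio of a pair of troponin genes in each array, set to a mean of 0 in the non-beating samples (horizontal axis), for 7 pairs of forms of 1 subunit (vertical axis), with non-beating arrays in blue, beating arrays in red and the 95% interval of the mean difference as a black line. Both pairs with Tnni3 are displaced by 4.40 and 5.18, whereas the 3 troponin T pairs have intervals that include 0.

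The samples that gave extreme values were the same for most genes. Of the 7 genes that rose, 6 had their highest value in beating replicate 1 and 6 had their lowest in non-beating replicate 3. Marker genes of other cells also differed between samples. The mean signal of 6 macrophage markers ran from 3.58 in beating replicate 1 to 5.71 in beating replicate 4. In non-beating replicates 1 to 4 it was 5.75, 7.01, 5.71 and 7.34. The mean signal of 5 endothelial markers was 3.69 in beating replicate 1 and lay between 5.46 and 6.34 in the other beating samples. In non-beating replicates 1 to 4 it was 5.50, 5.05, 5.62 and 6.36. Non-beating replicate 3 thus did not stand apart in either list. The part of these cells in the troponin values was not tested. Without beating replicate 1 and non-beating replicate 3, a choice made after their values were seen, 7 members were still called higher, with log2 fold changes between 4.42 for Tnni1 and 5.73 for Tnnt1.

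Over all 9 arrays, each pair among the 7 genes that rose correlated with r of at least 0.934, whereas Tnni3 correlated with them at r between 0.145 and 0.388. These are descriptions, since the arrays of a group share their condition and the gap between the groups carries most of each r. The gene closest to Tnnt2 among 18634 candidates was Actc1, cardiac alpha-actin (r = 0.999 over 9 arrays). Closest to Tnnt1 was Neb, the nebulin gene (r = 0.998), and closest to Tnnt3 was Des, the desmin gene (r = 0.995). The pattern of Tnni1 was most like that of Srl, a sarcoplasmic reticulum protein (r = 0.998), and that of Tnni2 like Myl4, an atrial and embryonic myosin light chain (r = 0.998). For Tnnc1 the closest gene was Myh8, the perinatal myosin heavy chain (r = 0.998), and for Tnnc2 Acta1, skeletal alpha-actin (r = 0.996). Nothing matched Tnni3 as well, and its closest gene was Slc20a2, a phosphate transporter (r = 0.917).

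The troponin T and troponin I genes lie in 3 pairs in the mouse genome, Tnni1 with Tnnt2, Tnnt1 with Tnni3, and Tnni2 with Tnnt3. Tnnt1 and Tnni3 have no annotated protein-coding gene between them, and only Tnnt1 rose. Lad1 is the protein-coding gene between Tnni1 and Tnnt2, and its log2 fold change was 0.11 (limma adjusted p = 0.582). Its means were 2.97 in the beating and 2.86 in the non-beating samples, below the day 28 array medians of 3.08 to 3.17. The means of Pkp1 and Dnaaf3 also lay below these medians. Lsp1, a leukocyte gene between Tnni2 and Tnnt3, read 7.07 ± 0.24 in the beating and 6.91 ± 0.060 in the non-beating samples (log2 signal, SD, n = 4 each, limma adjusted p = 0.496). Of the 12 protein-coding genes next to a troponin gene that are not troponins, 12 were measured and 0 were called by limma. Of all clusters, 2.82% were called higher and 3.34% lower, so a count of 0 among 12 genes is near the background. Their log2 fold changes lay between -0.15 (Ube2c) and 0.16 (Lsp1), with 95% intervals between -0.49 and 0.55. At an unadjusted p under 0.05 limma also called 0 of them, as did the methods' two-sample test after adjustment. The share of all clusters at that unadjusted p was not counted.

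**Figure D3:**
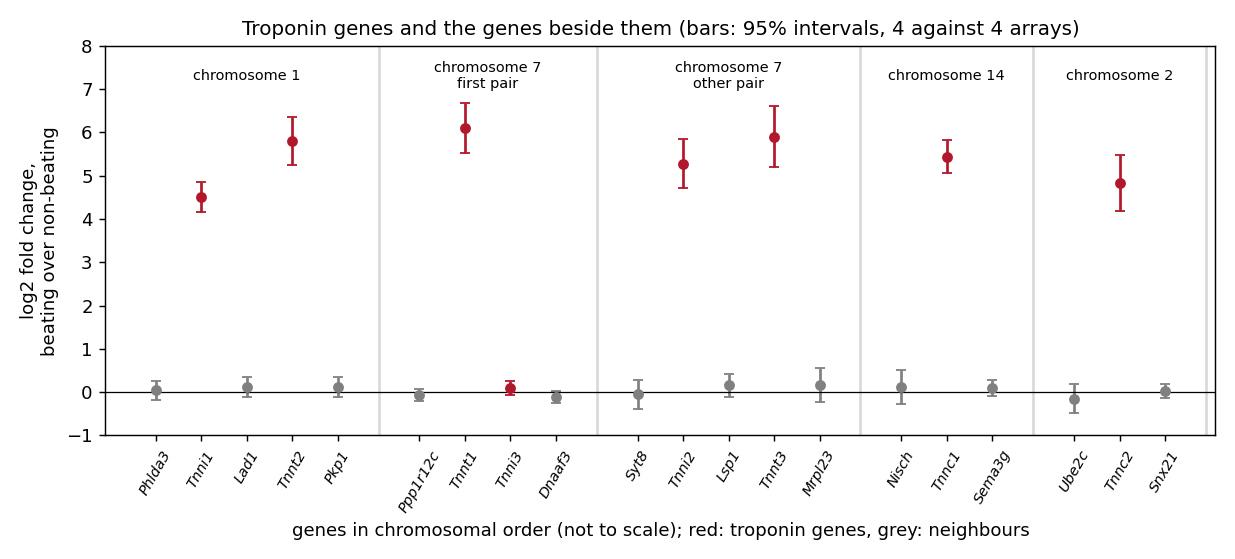
Log2 fold change of beating over non-beating samples (vertical axis) for each troponin gene in red and the genes beside it in grey, in chromosomal order and not to scale (horizontal axis), with 95% intervals. Red points of 7 genes lie between 4.50 and 6.10, and Tnni3 lies at 0.10 among neighbours between -0.15 and 0.16.

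Other thin filament genes rose less evenly. Of 13 genes, 8 rose and 5 did not pass, against 2.82% of all clusters called higher. Of the 5, 2 were lower (Tpm4 and Tmod3) and 1 higher (Tmod4) at an unadjusted limma p under 0.05. The median log2 fold change of the 13 genes was 0.96, against 5.36 for the troponins and 0.0073 for all clusters. Neb, whose protein spans the thin filament, rose by 6.88 and Actc1 by 6.46 on the log2 scale (limma adjusted p = 2.04e-07 and 1.26e-06). Acta1 rose by 5.57, and the nucleators Lmod2 and Lmod3 by 5.41 and 4.80. Tropomyosin genes, which other cells also use, started from a high signal. Tpm1 read 10.79 ± 0.062 against 10.22 ± 0.050 (log2 signal, SD, n = 4 each, limma adjusted p = 0.00124) and Tpm2 read 10.16 ± 0.19 against 9.20 ± 0.10 (limma adjusted p = 0.00186). The brightest of the 4 Tpm3 clusters differed by 0.14 (limma adjusted p = 0.56), whereas the next brightest rose by 3.67 (limma adjusted p = 0.000212), so the parts of this gene did not move together. Tmod3, a pointed-end cap, read 7.25 ± 0.65 in the beating and 8.44 ± 0.16 in the non-beating samples and did not pass (limma adjusted p = 0.0551). It passed, as lower, under 6 of the alternatives, among them without beating replicate 1 (log2 fold change -0.87, limma adjusted p = 0.0121) and without beating replicate 4 (-1.36, limma adjusted p = 0.0439).

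Outside the troponins, fast skeletal genes and most genes of slow muscle, a list largely shared with the heart ventricle, rose. Of all clusters, 2.82% were called higher. All 10 fast skeletal genes rose, with a median log2 fold change of 5.17, led by the myosin heavy chain Myh1 (6.60, limma adjusted p = 3.66e-07) and the calcium store protein Casq1 (6.32, limma adjusted p = 8.16e-07). The smallest of these rises were those of Mybpc2 (0.97, limma adjusted p = 0.0258) and Pvalb (0.84, limma adjusted p = 0.0151). These 2 calls were lost with the methods' two-sample test (adjusted p = 0.0877 and 0.0577) and without single non-beating samples. Mybpc2 was lost without any 1 of non-beating replicates 1 to 4, at adjusted p between 0.0546 and 0.0738, and Pvalb without replicate 2 (0.0558) or replicate 3 (0.0525). Of 7 slow genes, 5 rose, with a median of 3.80. They included the slow myosin Myh7 (3.80), the ventricular light chain Myl2 (4.84), the calcium store protein Casq2 (6.36) and the calcium pump Atp2a2 (0.98), each of which the heart also uses. The other riser was Mybpc1, slow myosin-binding protein C (5.57, limma adjusted p = 4.59e-06). The slow genes Myl3 and Pln did not pass (0.21 and 0.51, limma adjusted p = 0.597 and 0.248).

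Of a list of 6 heart genes that leaves out the troponins and the shared genes above, 1 rose and 5 did not pass. Of all clusters, 2.82% were called higher. The list had a median log2 fold change of 0.10. The riser was Myh6, the adult mouse cardiac myosin, at 2.77 ± 0.094 against 2.36 ± 0.074 (log2 signal, SD, n = 4 each, 1.33-fold, limma adjusted p = 0.0131). The others, Myl7, Mybpc3, Ryr2, Nppa and Nppb, had log2 fold changes between 0.012 and 0.16. Of the 6, 4 read below the array median on all beating arrays (Myh6, Myl7, Ryr2 and Nppa), and the part of background in these small changes was not tested. Among 6 cardiomyocyte markers, Myh6 (on both lists) was called higher, Tbx5 lower and Nkx2-5, Gata4, Hand2 and Tbx20 not. The list mean lay between 3.09 and 3.20 in the beating and between 3.12 and 3.26 in the non-beating samples. By qRT-PCR the paper reports Gata4 and the gene of brain natriuretic peptide (Nppb) raised in beating cells. By the same method it reports Tbx5 unchanged and atrial natriuretic peptide (Nppa) not raised. Whether the clusters of these genes respond to their transcripts was not tested. Of 4 muscle markers, which are not all specific to skeletal muscle, Myod1 (2.40), Myog (3.83) and Des (5.36) rose. Ckm did not pass (0.38, limma adjusted p = 0.109). The part that a mix of muscle types within a colony has in the troponin values was not tested.

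In the round pool of day 14, of the 7 troponin genes that rose, 3 read above all beating samples, 3 below them and 1 within their range. With 1 sample it allows no test, and its array median was 3.54 against 3.08 to 3.17 for the day 28 arrays. The pool held only 6 cells and was taken on day 14. Cell type, time in culture and amount of RNA therefore cannot be told apart in its differences from day 28. The paper itself raises a concern about noise in this pooled sample. As deposited, 7 of 8 members lay above all 4 non-beating samples in the round pool, as did 54.3% of all clusters. The same 7 were at least 4-fold above the non-beating mean, as were 3.20% of clusters. The exception was again Tnni3.

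All 3 troponin T genes read higher in the round pool than on any other array, with Tnnt1 at 10.79, Tnnt2 at 11.47 and Tnnt3 at 11.76 (log2 signal). However, 46.4% of all clusters did so too, and with each array centred on its median 1 member did. The round pool was 0.85, 0.36 and 0.62 above the beating means (Tnnt1, Tnnt2 and Tnnt3, log2). For Tnnt2 the sign turned to -0.038 with median centring.

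As deposited, both troponin I genes that rose were lower in the round pool than on any beating array. Tnni1 read 5.88, which was -1.59 relative to the lowest beating sample and 2.60 above the non-beating mean (log2). That is 6.07-fold above the non-beating mean, the smallest such value among the 7 genes. With quantile normalization Tnni1 was 3.53 above that mean, and with median centring 2.15 (log2). Tnni2 read 9.15 and Tnnc2 8.80, which were -0.66 relative to the lowest beating sample in either case. The size of these shortfalls depended on the scaling, and their sign relative to the beating means did not. Relative to the beating means, Tnni1, Tnni2 and Tnnc2 were at -1.90, -0.96 and -0.87 (log2) as deposited. With quantile normalization they were at -0.82, -0.43 and -0.27, and with median centring at -2.30, -1.36 and -1.26. Altogether, as deposited, 4 members lay below all beating samples (Tnni1, Tnni2, Tnni3 and Tnnc2), as did 27.9% of clusters. Tnnc1, at 11.41, lay within the range of the beating samples, at -0.11 relative to their mean as deposited and at 0.12 with quantile normalization. With median centring Tnnc1 was at -0.51. Tnni3, at 4.32, was the 1 member below all 8 other arrays, as were 24.4% of clusters. Relative to the non-beating mean Tnni3 was at -0.18 as deposited, at 0.032 with quantile normalization and at -0.63 with median centring.

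**Figure D4:**
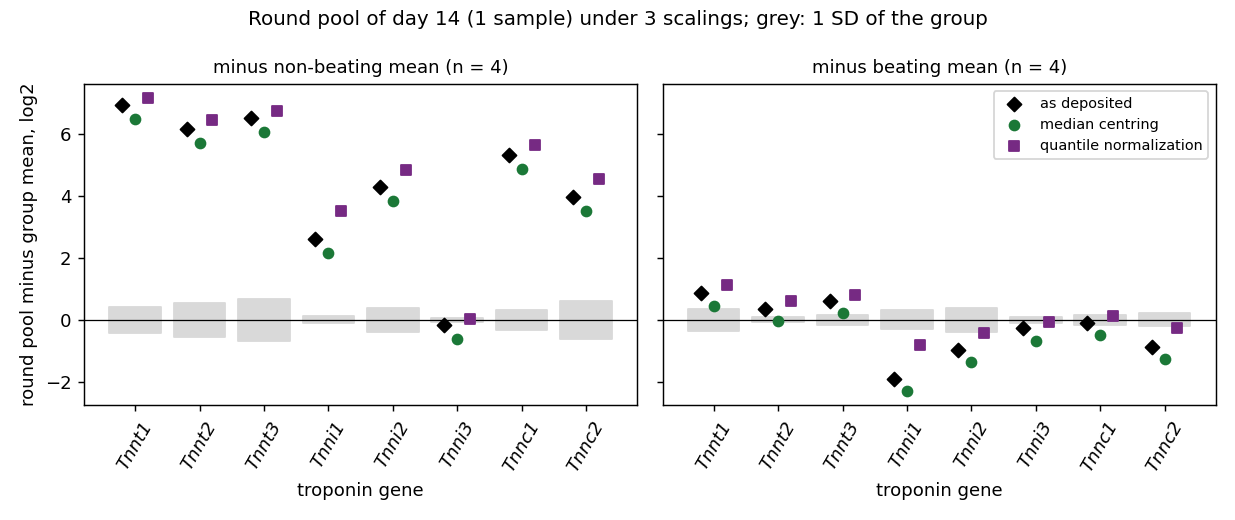
Round pool minus the mean of the non-beating samples (left) and of the beating samples (right) in log2 signal (vertical axis) for each troponin gene (horizontal axis), under 3 scalings, with grey boxes of 1 SD of the group (n = 4). On the left 7 genes lie between 2.15 and 7.17 under every scaling, and on the right Tnni1 is lowest, between -2.30 and -0.82.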

How the data were processed

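The deposited table holds log2 signals of 9 Affymetrix Mouse Gene 1.0 ST arrays, 1 value for each of 33323 transcript clusters. For their own work the authors used BRB-ArrayTools, on log2 values after normalisation and centring on the mean. Which step made the deposited table is not given in the sources used here. No centring by gene was found in the deposited values, which were used as they are. For genes with several clusters, the one with the highest mean over the 8 day 28 arrays was taken.

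The 4 beating and 4 non-beating arrays entered one linear model per cluster with moderated variances (limma 3.58.1, R 4.3.3). Tests were two-sided, p-values were adjusted by Benjamini-Hochberg over all clusters, and 0.05 was the threshold. Precision is limited by how few arrays there are. The fit was tested on simulated data. For pairs of forms, all 70 splits of the arrays were enumerated in an exact permutation test. The round pool has no test. Genes named are the 8 members, for each the 3 genes with the highest Pearson r over the 9 arrays, the protein-coding genes next to a member, and the genes of the lists for thin filament, cardiac, slow, fast and marker genes. Members and lists were chosen with earlier results of these data known. Gene symbols were matched to GRCm38.p6 for 21698 of 21789 clusters with 1 symbol.

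Alternatives covered scaling, filters on dim and flat clusters, the variance model, array weights, the two-sample test with pooled variance that the methods name, blocking on the replicate number, another cluster of the same gene and each array left out in turn. Leaving out both arrays that stood apart was added after seeing the data. Clusters with several symbols or none were not analysed here as genes.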

Additional observations from a re-analysis of the deposited data

Results flagged for a closer look

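In 2 of the 16 groups of 4 troponin values, 1 sample stood apart from the other 3. Tnnt1, slow skeletal troponin T, read 10.47 (log2 signal) in beating replicate 1, and its gap to the nearest beating sample was 0.916 of the range of the group. Tnnt3, fast skeletal troponin T, read 4.23 in non-beating replicate 3, and the gap was 0.836 of the range. Both pass Dixon's 95% critical value for 4 samples, which chance passes in about 1 of 20 groups.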

How the results depend on the processing

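All 7 members that rose were called under each of the other settings run and with beating replicate 1 and non-beating replicate 3 both left out. Tnni3 stayed above the threshold, with log2 fold changes between 0.045 and 0.14 and adjusted p between 0.337 and 0.745. It was left out by the 1.5-fold filter. The other-cluster alternative gave no value for members, which have 1 cluster each. With the replicate block, which the numbers do not support as pairs (same-numbered deviations correlated at -0.012 to 0.028, and 0 of 4 samples correlated best with their own number), 645 clusters were called lower against 1114, and 0 cardiac genes higher. That count of 1, Myh6, was also 0 with dim clusters left out, with the 1.5-fold filter, which both remove the gene, and with the two-sample test at p under 0.0001. Over all clusters the two-sample test called 491 higher and 375 lower after adjustment, and 211 and 61 at p under 0.0001, against 940 and 1114. Leaving out 1 array gave 569 to 914 higher and 438 to 1023 lower. The count of thin filament genes called lower was 1 (Tmod3) in place of 0 with median centring, dim clusters left out, the 1.5-fold filter and array weights, and 0 to 1 without single arrays. The excess of Tnnt3 over Tnnt2 ran from -0.067 to 0.30 without single arrays, reversing without non-beating replicate 3 (-0.062) or replicate 4 (-0.067). For the round pool, 1 member lay above all other arrays with median centring in place of 3, and 0 below with quantile normalization in place of 1. Its difference from the beating mean turned for Tnnt2 (-0.038, median centring) and Tnnc1 (0.12, quantile normalization), and that from the non-beating mean for Tnni3 (0.032, quantile normalization). Median centring and quantile normalization moved the median of all clusters in the round pool by -0.42 and -0.20. The causes were not tested. If the signals hold background, changes of genes near it are understated by an amount these arrays cannot give.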

Other observations

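In the round pool, other genes of the muscle lists also parted from the beating samples in both directions (log2 signal, 1 pool and no test). Neb, Actc1 and Myh1, a fast myosin heavy chain, read 11.30, 11.68 and 10.83 against beating means of 10.40 ± 0.21, 11.29 ± 0.14 and 9.73 ± 0.23 (SD, n = 4). Mybpc1, slow myosin-binding protein C, read 8.94 against 8.16 ± 0.44. The slow myosin Myh7 read 4.88 against 6.74 ± 0.48, and the light chain Myl2 read 3.39 against 7.43 ± 0.65, with non-beating means of 2.93 ± 0.14 and 2.59 ± 0.11. Of the 10 fast genes, 1 read above all 8 other arrays (46.4% of all clusters did) and 6 below all 4 beating arrays (27.9% of all clusters did), among them Myh2 at 5.60 against a beating mean of 7.19 ± 0.38, Myh4 at 6.24 against 7.88 ± 0.81 and Atp2a1 at 5.27 against 7.13 ± 0.46. All 6 genes of the cardiac list (Myh6, Myl7, Mybpc3, Ryr2, Nppa and Nppb) read above all 8 other arrays, as did 46.4% of all clusters. Of them, 0 were at least 4-fold above the non-beating mean, against 3.2% of all clusters. Myh6 (3.45), Myl7 (3.17) and Ryr2 (3.02) read below the median of the round array itself, 3.54. The part of background in these readings was not tested.

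Tpm4, Tmod3 and the brightest Tpm3 cluster, which cells outside muscle also use, read lower in the round pool than on any other array. These were 3 of 13 thin filament genes, against 24.4% of all clusters, so the share is near the background. Tpm4, a tropomyosin of the cytoskeleton, read 6.20 there, 10.18 ± 0.48 in the beating and 10.80 ± 0.083 in the non-beating samples. Tmod3 read 3.88, 7.25 ± 0.65 and 8.44 ± 0.16, and the brightest Tpm3 cluster 7.51, 10.05 ± 0.25 and 9.91 ± 0.020. Fibroblast markers, as a mean of 6 genes, read 4.61 in the round pool, 6.48 to 6.92 in the beating and 7.12 to 7.97 in the non-beating samples, and their part in these values was not tested.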
